A study of Homo sapiens with 4 samples.

Results

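Keratins are the intermediate filament proteins of epithelial cells. The array carried 80 probes, on 140 spots, for 54 keratin genes, out of 50238 probes for 30988 genes or gene names in all. The genes were taken by name, as KRT followed by a number and an optional letter, and keratin associated proteins and 30 probes named as pseudogenes were left out. Where a gene had several probes, the brightest over the 4 arrays gave its value. The 54 genes were 28 of type I and 26 of type II, and 38 of them had 1 probe.

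RNA of 2 clones derived from HCT116, an established colorectal carcinoma cell line, was read on 4 arrays, each with the Cy3 dye alone. The vector control (vec) was compared with the PKP3 knockdown clone (shpkp3-2), which stably expresses a short hairpin RNA against plakophilin3 from a plasmid, to find transcripts altered when PKP3 is lost. Each group is 1 clone, so that the knockdown and other differences between the clones cannot be told apart. Each clone gave 2 RNA samples, of which vec1 and shpkp3-2-1 were collected together, and vec2 and shpkp3-2-2 at another time. The labels name puromycin as the selection agent of both clones and the methods of the study name blasticidin, each at 5 μg/ml. All 4 arrays lay on 1 slide, with the clones at different positions, so that position and clone cannot be told apart.

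Type I and type II keratins form obligate pairs that assemble into filaments, and each kind of epithelium uses its own pairs. Simple epithelia such as that of the colon use KRT8 with KRT18, KRT19 and KRT20, stratified epithelia use pairs such as KRT5 with KRT14 and KRT1 with KRT10, and hair uses a set of its own. Desmosomes anchor these filaments at the cell border through desmoplakin, and the plakophilins, PKP3 among them, bind to desmoplakin and to the desmosomal cadherins.

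Signals are given as deposited, on a linear scale and not scaled between arrays. Of the 51538 spots that are not controls, between 60.5% and 63.5% were well above background, no spot was saturated, and the lowest signal called well above background was between 8.41 and 9.74. For comparisons, the log2 signal was taken relative to the 75th percentile of each array, which was 8.96 in vec1 and between 8.55 and 8.57 in the other 3 arrays, so that an unscaled signal of vec1 reads high beside the others. A log2 difference is shpkp3-2 minus vec on this scale, and the median over all 30520 probes tested was 0.05. The signals of different probes depend on their sequences and were not set against each other.

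Keratin messages resemble each other, and the probe sequences show where they can be told apart. The probe of KRT7 and the less bright probe of KRT8 read the same stretch of 2 type II keratins, with 39 identical bases of the 56 that they share in an alignment without gaps (69.6%), and a longest shared run of 9 bases. The probe of KRT17 and the less bright probe of KRT14 read the same stretch of 2 type I keratins, with 52 identical bases of 56 (92.9%) and a shared run of 29 bases. Each probe has 60 bases, shown 5′ to 3′, and capitals mark the bases that differ between the members of a pair.
KRT7: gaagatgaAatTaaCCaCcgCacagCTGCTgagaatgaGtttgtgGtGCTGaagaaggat
KRT8: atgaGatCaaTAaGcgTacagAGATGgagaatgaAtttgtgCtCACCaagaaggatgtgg
KRT14: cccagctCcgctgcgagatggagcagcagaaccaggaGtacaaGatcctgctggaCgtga
KRT17: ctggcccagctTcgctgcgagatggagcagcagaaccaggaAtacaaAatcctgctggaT
Of all pairs of probes of different keratins, 3 were at least 70% identical over at least 40 bases. The set of KRT7 and KRT8 is shown because KRT7 passed the test described below and KRT8 did not, and that of KRT14 and KRT17 because the 4 bases that differ are all that separates them in the 56 bases.

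PKP3 was lower in shpkp3-2, as its signal was 20850.3 and 22839.8 in vec against 3414 and 3078 in shpkp3-2. The log2 difference was -2.54 (SE 0.23, limma adjusted p = 0.0188), and an exact permutation test of 2 arrays against 2, two-sided, gave 0.333, the smallest p it can give. The p-values of limma measure the spread between the 2 arrays of each clone, that is between RNA samples of 1 clone. The call was lost when all probes were tested with no filter on detection (adjusted p = 0.135) or with the weaker flag of the software, positive and significant, as the filter (adjusted p = 0.145).

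Of the 54 keratin genes, 27 were tested, which asked for a signal well above background on the 2 arrays of vec, on those of shpkp3-2, or on all, 17 of type I and 10 of type II. A further 7 were well above background on some arrays only, and 20 on none. All 7 keratins of simple epithelia were tested, 3 of 12 stratified type II, 7 of 9 stratified type I, 4 of 6 hair type II and 6 of 11 hair type I keratins. None of the 9 keratins grouped as those of the root sheath of hair was tested by its brightest probe.

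KRT23 rose in shpkp3-2, and KRT7, at or near background in vec, was clearly detected in shpkp3-2 and was also called higher. No other keratin passed the test of limma across all probes (adjusted p under 0.05). Of the 27 genes tested, 23 were detected on all 4 arrays, of which KRT23 is 1, while KRT7 entered the test through shpkp3-2 alone, the clone in which it is high, and KRT17, KRT36 and KRT38 through vec alone, so that the counts below describe the genes tested and not all keratins. KRT7 is a type II keratin of ducts and other simple epithelia that is absent from most normal colon, and KRT23 is a type I keratin with a message found in colon carcinoma cells. These are 2 of 27 keratins called higher, or KRT23 alone without the gene that entered through its high clone, where 0.282% of the 20226 genes tested, 1 lead probe each, were called higher (0.249% of all probes), and 0 of 27 called lower, where 0.158% of all genes and 0.147% of all probes were. At an unadjusted p under 0.05 in the same fit, 7 keratins were higher (7.63% of all genes) and 2 were lower (4.55%). Both shpkp3-2 arrays lay above both vec arrays for 14 of 27 keratins, where 28.3% of all genes did, and below them for 2, where 17.2% did. In both counts the 2 lower genes were KRT17 and KRT36, which entered the test through vec alone. Nothing is read from these counts of lower genes. The difference was above 0 for 22 of 27 keratins and for 58.3% of all genes, with a median of 0.19 over the keratins and 0.06 over all genes.

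These counts move with the scaling. The difference was above 0 for 24 keratins with normexp background correction, for 20 after quantile normalization and for 19 after median centring. The median over the keratins was 0.17, 0.15 and 0.12 under these settings, and that over all probes tested was 0.08, -0.00 and -0.02. Of the 27 genes, 19 were higher and 3 lower under all 4 scalings, and for 5 the direction turned.

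**Figure D1:**
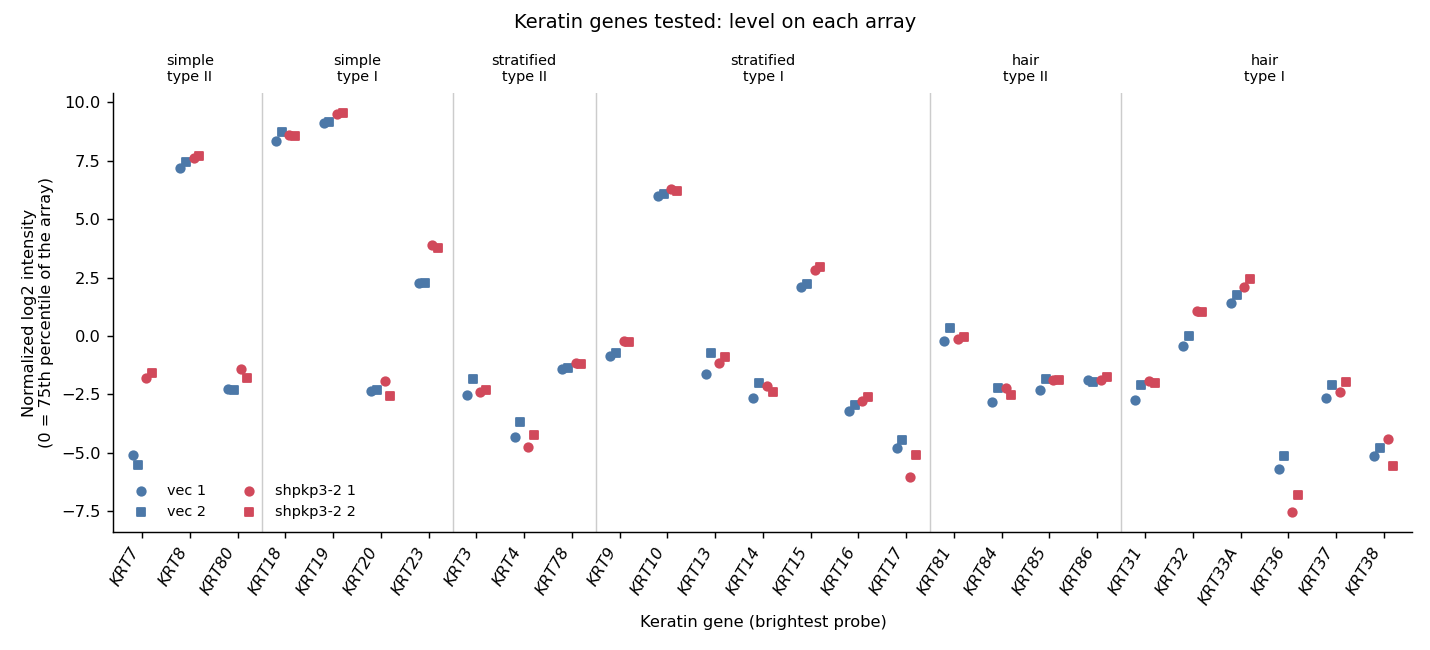
Level of the 27 keratin genes tested on each array, as log2 intensity relative to the 75th percentile of the array, grouped by the tissue and type of the keratin, with circles for collection 1 (vec1, shpkp3-2-1) and squares for collection 2. Both shpkp3-2 arrays lie well above both vec arrays for KRT7, KRT23 and KRT32, and the arrays of KRT8, KRT18, KRT19 and KRT10 lie close together. Heights of different genes are not comparable.

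Among the type II keratins of simple epithelia, KRT7 gave signals of 14.7 and 8.41 in vec against 109 and 126 in shpkp3-2. It was well above background on both shpkp3-2 arrays and on 1 of the 2 vec arrays. The log2 difference was 3.61 (SE 0.22, 95% interval 3.07 to 4.15, adjusted p = 0.0051). This value is taken in part against the signal of vec2, which lay below 9.67, the lowest signal well above background on that array. Within collection 1, where the vec signal was well above background, it was 3.28. With normexp background correction it was 1.51 (adjusted p = 0.00481), outside that interval, so that its size depends on the background correction, and no fold is given. The call was lost with no filter (adjusted p = 0.0517) and with the weaker flag (adjusted p = 0.0657). In RNA of a whole culture, a higher level in every cell and expression in a larger share of the cells cannot be told apart.

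KRT8, the main type II keratin of simple epithelia, gave signals of 73784 and 66782 in vec against 74597 and 77600.4 in shpkp3-2. The normalized levels did not overlap between the clones, but the log2 difference was 0.33 with an interval of -0.13 to 0.78 (adjusted p = 0.532). Its other probe, shown above beside that of KRT7, gave 844 and 681 in vec against 637 and 756 in shpkp3-2, which overlapped, with a log2 difference of 0.08. Neither probe of KRT8 passed the test. The interval of the brighter probe lay below a 2-fold rise, but it measures only the spread between RNA samples of the same clone.

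KRT80, a type II keratin of epithelia with a role at desmosomes in differentiating cells, gave 104 and 76.2 in vec against 141 and 107.4 in shpkp3-2. Its log2 difference was 0.68 (interval 0.19 to 1.18, adjusted p = 0.289), and its other probe gave 0.84 (adjusted p = 0.38). The normalized levels of both probes were higher on both shpkp3-2 arrays, and neither passed the test.

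Among the type I keratins of simple epithelia, KRT23 gave signals of 2391 and 1845 in vec against 5698 and 5131 in shpkp3-2. Its probe was well above background on all 4 arrays, and the clones did not overlap. The log2 difference was 1.58 (SE 0.17, interval 1.15 to 2.00, adjusted p = 0.0379), or 2.98-fold, with 1.65 within collection 1 and 1.502 within collection 2. The size of the difference changed little under the alternatives, between 1.51 and 1.64, but the call was lost in 7 of 14 of them, after quantile normalization (adjusted p = 0.0541), with no filter (0.218), with the weaker flag (0.173), and without vec2 (0.0609), shpkp3-2-1 (0.116) or shpkp3-2-2 (0.0626), and with the arrays paired across the collections, a setting chosen after seeing the data. A fit without 1 array leaves 1 array in that clone, which is assumed to vary like the other clone.

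KRT18, the partner of KRT8, gave signals of 164448 and 161155 in vec against 147080.0 and 142972 in shpkp3-2. After scaling, the arrays overlapped and the log2 difference was 0.04 (interval -0.44 to 0.53, adjusted p = 0.946). Its direction turned to -0.15 after quantile normalization and to -0.025 after median centring. The other 3 probes of KRT18 gave log2 differences of 0.15, 0.22 and 0.01.

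KRT19, a type I keratin of simple epithelia that pairs with KRT8, gave 275975 and 217734 in vec against 273704 and 282205 in shpkp3-2. KRT19 thus differed by 0.39 on the log2 scale (interval -0.03 to 0.81, adjusted p = 0.436), with 0.38 and 0.40 within the collections. Over the 14 alternatives the difference of KRT19 lay between 0.03 and 0.43, so that its size depends on the processing. It was 0.36 to 0.42 without 1 array. KRT20, a keratin of differentiated intestinal epithelium, gave 96.3 and 76.4 in vec against 98.6 and 63.8 in shpkp3-2, a difference of 0.10 (adjusted p = 0.896). After scaling, the clones overlapped for KRT20 and not for KRT19.

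**Figure D2:**
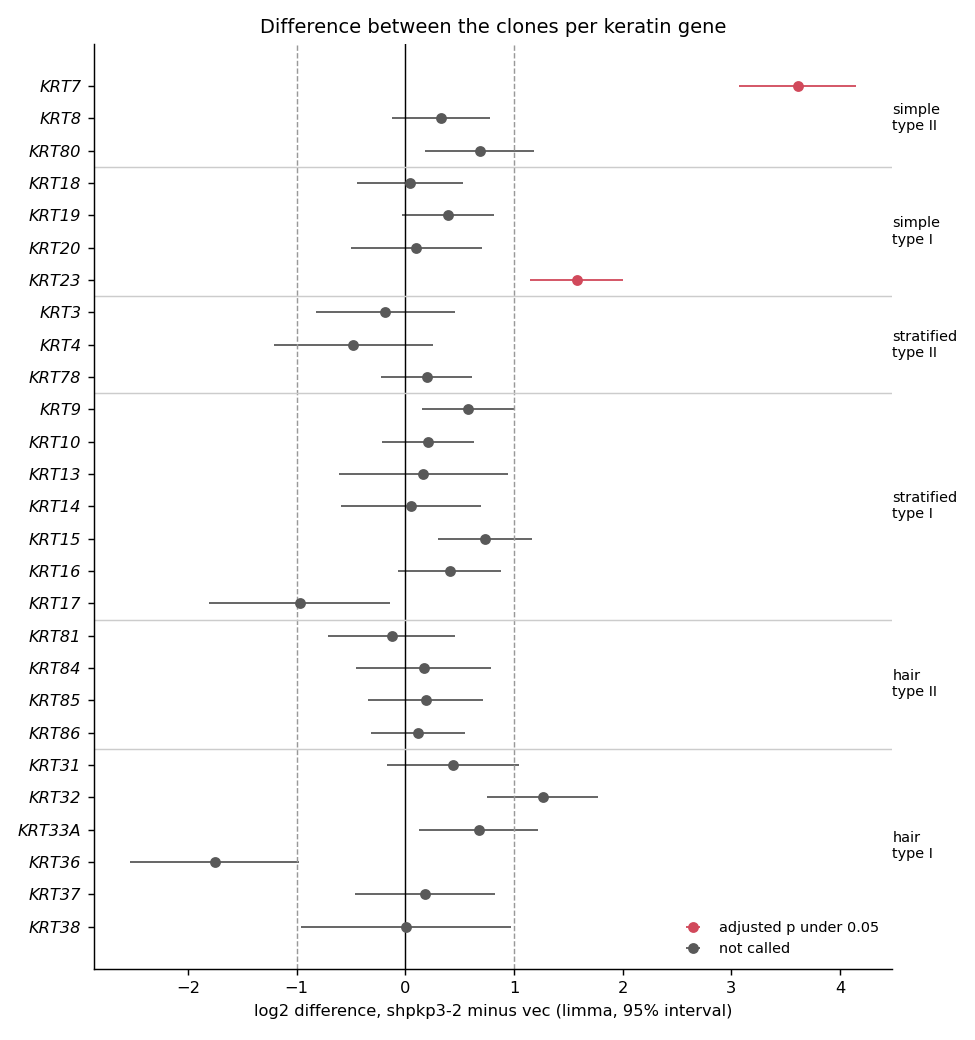
Log2 difference between the clones, shpkp3-2 minus vec, for the 27 keratin genes tested, with points for the estimate of limma and bars for its 95% interval, and dashed lines at a 2-fold change. KRT7 (3.61) and KRT23 (1.58) are called higher, and the intervals of 18 of the 27 genes hold 0.

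The stratified type II keratins were mostly not detected. KRT3, the type II keratin of the cornea, gave 87.3 and 106.7 in vec against 71.3 and 75.6 in shpkp3-2, with a log2 difference of -0.18 (adjusted p = 0.802). KRT4, of the mucosa of mouth and esophagus, gave 24.7 and 29.7 in vec against 14.0 and 20.1 in shpkp3-2, with a difference of -0.48 (adjusted p = 0.565). The arrays of the clones overlapped for both genes.

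KRT78 gave 189 and 148 in vec against 169.9 and 161 in shpkp3-2, a difference of 0.20 (adjusted p = 0.665), while its next probe gave -0.06 (adjusted p = 0.922) from signals of 17.5 and 13.2 in vec against 11.5 and 13.8 in shpkp3-2. KRT6A, a keratin of wounded epidermis, was well above background on 1 array of each clone, with signals of 10.6 and 12.1 in vec against 5.58 and 10.03 in shpkp3-2. So was KRT76, with 12.4 and 8.20 in vec against 4.56 and 10.8 in shpkp3-2. KRT5, the basal keratin of stratified epithelia, was well above background on no array, and neither were KRT1, KRT2, KRT6B, KRT6C, KRT77 and KRT79.

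Of the stratified type I keratins, 7 were tested and none passed the test. KRT10, the partner of KRT1 in the suprabasal epidermis, gave signals of 32013 and 26033 in vec against 29785 and 27860.0 in shpkp3-2, while KRT1 was well above background on no array. The log2 difference of KRT10 was 0.21 (interval -0.22 to 0.63, adjusted p = 0.652), and its other probes gave 0.22 and 0.15. Of these 3 probes, 2 were printed on 11 spots each, and the SD of the log2 signal over these spots was between 0.03 and 0.07 on an array.

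KRT15, a keratin of basal cells, gave 2156 and 1775 in vec against 2712 and 2902 in shpkp3-2, with no overlap after scaling. Its log2 difference was 0.73 (interval 0.30 to 1.16, adjusted p = 0.221), with 0.73 and 0.74 within the collections. KRT9, the keratin of the skin of palms and soles, gave 275 and 228 in vec against 329 and 316 in shpkp3-2, a difference of 0.58 (interval 0.15 to 1.00, adjusted p = 0.298). Its other probes, on 11 spots each, gave 0.69 (adjusted p = 0.234) and 0.58 (adjusted p = 0.314), with an SD over spots of 0.08 to 0.22. All 3 probes of KRT9 were higher on both shpkp3-2 arrays, and none passed the test.

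KRT17, which is induced in wounded epidermis, gave 18.1 and 17.7 in vec against 5.70 and 10.9 in shpkp3-2, and was well above background on 1 of the 2 shpkp3-2 arrays. On the log2 scale the difference was -0.97 (interval -1.80 to -0.14, adjusted p = 0.346), and with normexp background correction it was 0.039. The less bright probe of KRT14, which differs from it by 4 bases of 56, gave 24.9 and 21.7 in vec against 24.7 and 25.9 in shpkp3-2, with a difference of 0.33 (adjusted p = 0.518). The brighter probe of KRT14, the basal partner of KRT5, gave 80.0 and 95.3 in vec against 85.8 and 70.8 in shpkp3-2, with a difference of 0.05 (adjusted p = 0.957). How far each of the 2 similar probes takes up the message of the other gene was not tested.

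KRT16, also of wounded epidermis, gave 53.4 and 48.5 in vec against 55.1 and 61.6 in shpkp3-2, a difference of 0.41 (adjusted p = 0.464), and its other probe gave -0.13 from signals of 16.6 and 10.2 in vec against 9.65 and 10.9 in shpkp3-2. KRT13, the partner of KRT4, gave 161 and 228 in vec against 171 and 200.1 in shpkp3-2, a difference of 0.16 (adjusted p = 0.861). KRT12, the partner of KRT3, and KRT24 were well above background on no array. For KRT12, 2 of the 3 probes had 11 spots, of which at most 1 was well above background on an array.

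No hair keratin passed the test. KRT32, a type I keratin of the hair cuticle, gave 376 and 381 in vec against 794 and 774 in shpkp3-2, and was well above background on all 4 arrays. Its log2 difference was 1.26 (SE 0.21, interval 0.76 to 1.77, adjusted p = 0.108), or 2.40-fold, with 1.47 within collection 1 and 1.05 within collection 2. With the collection as a replicate block it was called (adjusted p = 0.00635), as it was with normexp background correction (adjusted p = 0.0341) and with a trended and robust prior (adjusted p = 0.0462).

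KRT36, another type I hair keratin, gave 9.71 and 10.8 in vec against 2.04 and 3.38 in shpkp3-2, and was well above background on both vec arrays and on neither shpkp3-2 array. The log2 difference was -1.75 (interval -2.53 to -0.98, adjusted p = 0.131), and no fold is given, as the signals of vec lay at the level of the dimmest spots that were well above background in shpkp3-2. It was called with the replicate block (adjusted p = 8.53e-05) and without shpkp3-2-2, which leaves 1 array in that clone (adjusted p = 0.0249), and with normexp background correction the difference was -0.00. As KRT36 entered the test through vec alone and was not measured above background in shpkp3-2, these calls give no size of change.

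KRT33A, a keratin of the hair cortex, gave 1332 and 1304 in vec against 1620.1 and 2037 in shpkp3-2, a difference of 0.67 (interval 0.13 to 1.22, adjusted p = 0.326). KRT31, also of the cortex, gave 75.2 and 87.9 in vec against 98.6 and 91.5 in shpkp3-2, a difference of 0.44 (adjusted p = 0.532), and its other probes gave 0.34 and 0.20. By the brightest probes, neither gene overlapped between the clones after scaling, while the KRT31 probe with a difference of 0.20 did.

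KRT37 gave 80.4 and 90.4 in vec against 72.7 and 95.7 in shpkp3-2, a difference of 0.18 (adjusted p = 0.807). KRT38 gave 14.0 and 13.6 in vec against 18.1 and 7.91 in shpkp3-2, a difference of 0.00 with an interval of -0.96 to 0.97, and its other probe was not tested. Both genes overlapped between the clones. KRT34 was well above background only in shpkp3-2-2, with signals of 3.44 and 4.46 in vec against 3.24 and 9.25 in shpkp3-2. KRT35 was well above background only on 1 shpkp3-2 array, with 10.8 and 9.64 in vec against 12.8 and 8.94 in shpkp3-2. KRT33B, KRT39 and KRT40 were well above background on no array.

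No type II hair keratin came near a 2-fold difference, with 95% intervals between -0.71 and 0.79 in the 4 tested. KRT81 gave 424 and 478 in vec against 346 and 366 in shpkp3-2, a log2 difference of -0.13 (adjusted p = 0.856). KRT86 gave 136 and 96.1 in vec against 104 and 111 in shpkp3-2, a difference of 0.12 (adjusted p = 0.814). KRT84 gave 70.4 and 80.4 in vec against 81.4 and 65.6 in shpkp3-2, a difference of 0.17 (adjusted p = 0.814), while its other 2 probes were not tested. The arrays of the clones overlapped for KRT81 and KRT84.

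KRT85 gave 101 and 106 in vec against 102 and 102 in shpkp3-2, a difference of 0.19 (adjusted p = 0.749). A probe under an older name of the gene, KRTHB5, which the name rule leaves out, gave 1410.2 and 939.9 in vec against 1144 and 935 in shpkp3-2, a difference of 0.06 (adjusted p = 0.928). The arrays of the clones overlapped for both probes. KRT83 was well above background on 1 vec array, with 2.30 and 12.1 in vec against 2.51 and 4.14 in shpkp3-2, and KRT82 on no array.

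Keratins of the root sheath of hair were near background. KRT27 was well above background in shpkp3-2-1 alone, with a signal of 20.1 against 1.86 in shpkp3-2-2 and 2.11 and 2.20 in vec. The brightest probe of KRT71 was well above background on 1 vec array, with 10.9 and 18.7 in vec against 11.4 and 8.63 in shpkp3-2. Another probe of KRT71 was tested, with 8.79 and 11.04 in vec against 10.3 and 13.8 in shpkp3-2 and a log2 difference of 0.48 (adjusted p = 0.561). KRT25, KRT26, KRT28, KRT72, KRT73, KRT74 and KRT75 were well above background on no array.

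A difference of at least 2-fold from the mean of vec on each shpkp3-2 array, with detection on both arrays of the higher clone, was counted without a test. By this 2-fold rule, set here, 3 keratins were higher, KRT7, KRT23 and KRT32, where 1.23% of all genes and 1.12% of all probes were. For lower genes, which were 0.638% of all genes and 0.623% of all probes, the signals of KRT36 alone met the rule. At 1.5-fold, the fold cut that the legends name for the HCT116 clones, KRT15 joined the higher genes, which made 4 (4.28% of all genes), and KRT36 alone met it for lower genes (2.43% of all genes). As KRT36 was not well above background in shpkp3-2, no fall of either size was measured for it, and nothing is read from its count. KRT7 enters these counts through shpkp3-2, the clone in which it is high.

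Set against all probes of a like level, 8 keratins lay above the 95th percentile of the log2 difference in their band of levels and 18 within the 5th to the 95th percentile. The 8 were KRT7, KRT23, KRT32, KRT15, KRT33A, KRT80, KRT9 and KRT19. KRT36 lay in a band with too few probes. This is a description of the arrays, with no test.

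**Figure D3:**
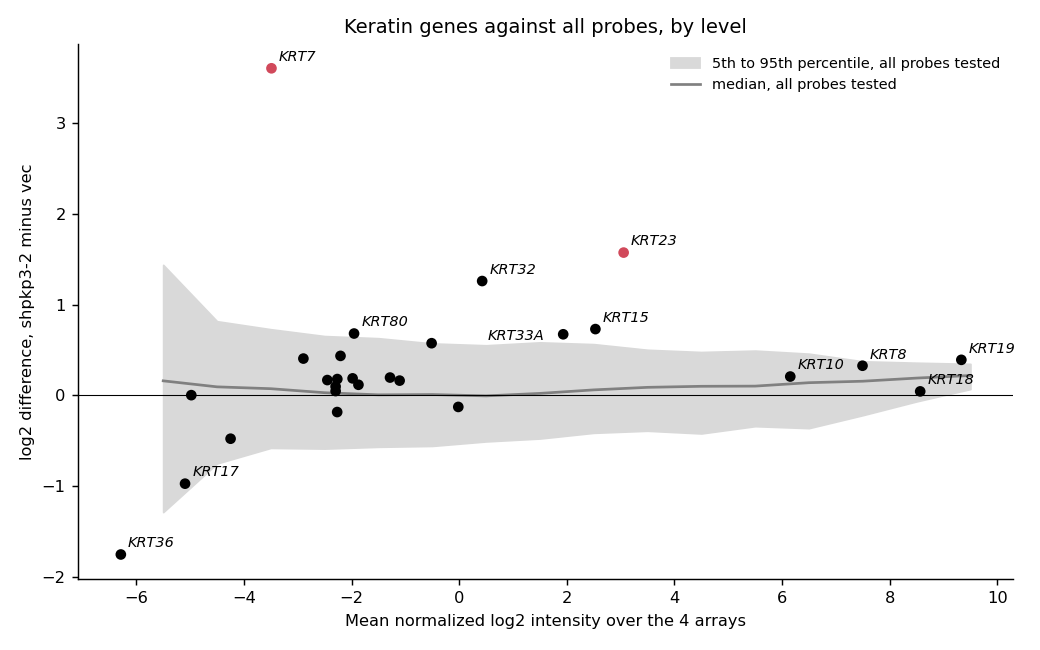
Log2 difference between the clones against the mean normalized log2 intensity over the 4 arrays, for the 27 keratin genes tested (points, red where called), with the median (line) and the 5th to 95th percentile (band) over all probes tested in bands of 1 log2 unit with at least 20 probes. KRT7, KRT23 and KRT32 lie far above the band, and KRT8, KRT10 and KRT18 lie within it.

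Keratin genes lie in 2 clusters, the type II genes with KRT18 on chromosome 12 and the other type I genes on chromosome 17. Their order was taken from RefSeq (GRCh38.p14), and the positions on hg18, on which the array was designed, were not used here. Of the 27 genes on chromosome 12, 11 were tested, with a median log2 difference of 0.17 and 8 above 0. Of the 27 on chromosome 17, 16 were tested, with a median of 0.30 and 14 above 0. Over all genes, 58.3% were above 0. KRT7 lies between KRT80 (0.68) and KRT86 (0.12), and KRT23 between KRT20 (0.10) and KRT39, which was not detected. KRT32 lies between KRT38 (0.00) and KRT35, and KRT35 is followed by KRT36, which was not measured above background in shpkp3-2. None of the tested neighbors of KRT7 and KRT23 passed the test.

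**Figure D4:**
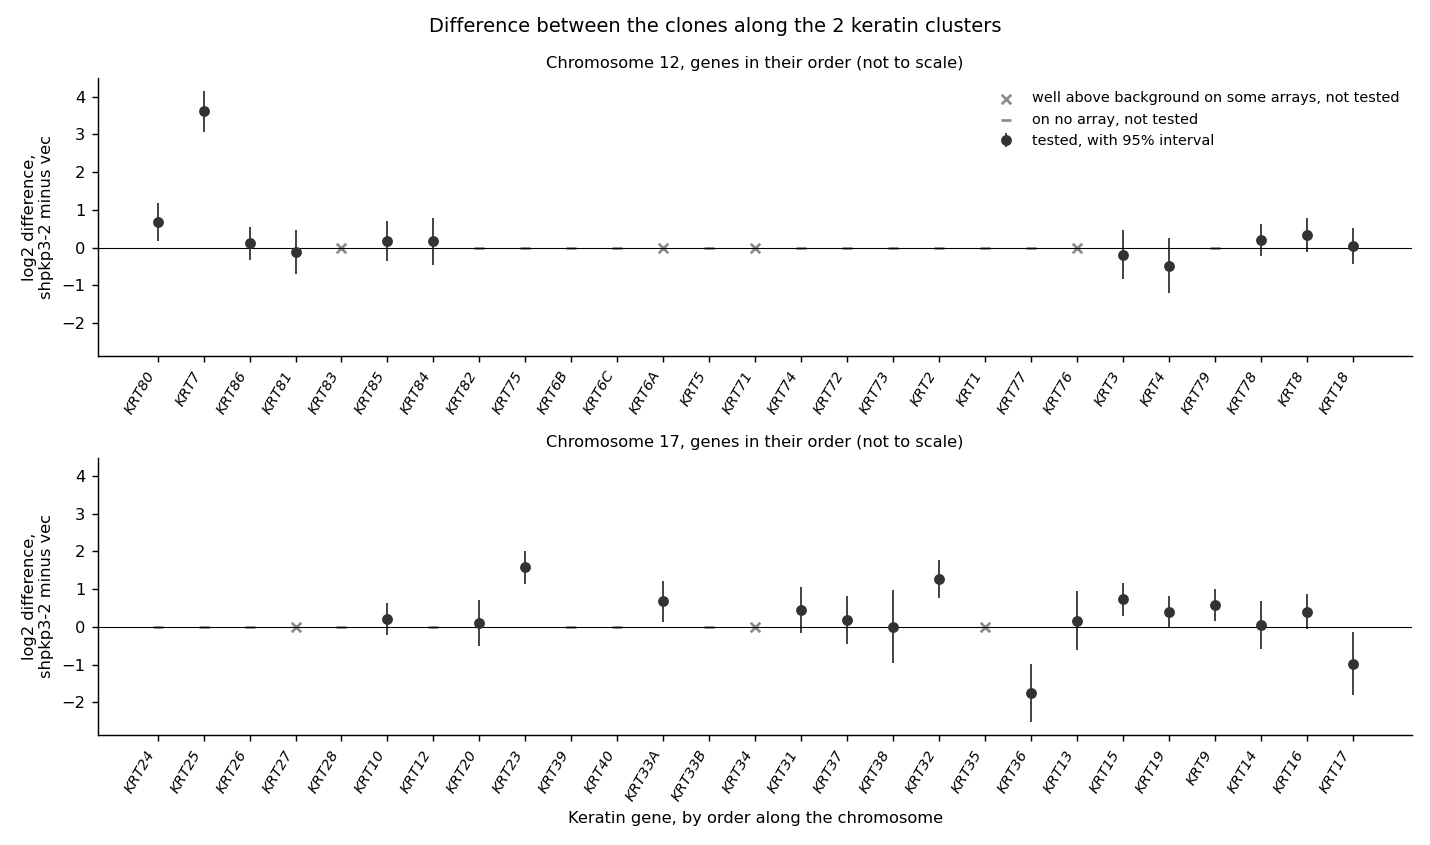
Log2 difference between the clones along the keratin clusters of chromosomes 12 and 17, with genes in their order but not to scale, bars for the 95% interval of limma, crosses for genes well above background on some arrays only and dashes for genes on none. KRT7 (3.61) and KRT23 (1.58) stand above the tested genes next to them, KRT80 (0.68), KRT86 (0.12) and KRT20 (0.10). KRT7 entered the test through shpkp3-2 alone, the clone in which it is high, and the size of its difference depends on the background correction.

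KRT8, KRT18 and KRT19 have processed pseudogenes that resemble their messages, and 29 probes of the array are named for these. Of the 17 probes for KRT18 pseudogenes, 16 passed the background flag on every array, and their log2 differences lay between 0.03 and 0.22, in the range of the probes of KRT18 itself. The longest run of bases shared by a KRT18 probe and one of these probes was 23. Of the 10 probes for KRT8 pseudogenes, 9 were tested, with differences of 0.12 to 1.11 and a median of 0.53, and both probes for KRT19 pseudogenes gave differences of 0.62 and 0.72. None of these probes passed the test, the lowest adjusted p being 0.254. The probe named KRT222P was left out by its name, although RefSeq lists KRT222 as a gene, and gave 839 and 666 in vec against 938 and 829.6 in shpkp3-2, a difference of 0.45 (adjusted p = 0.393).

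The genes around the keratins were read from lists in the same fit, by the brightest probe of each gene, and their calls stand beside 0.282% of all genes called higher and 0.158% called lower. Of 51 other probes of these genes that were tested, 2 passed the test, 1 of SPRR1A and 1 of PTP4A1. Of the listed genes of desmosomes, hemidesmosomes and other proteins linked to the cytoskeleton, 18 of 23 were tested and none passed the test. Their median log2 difference was -0.09. COL17A1, a collagen of hemidesmosomes, met the 2-fold rule, with 167 and 136 in vec against 367 and 305 in shpkp3-2 and a difference of 1.36 (adjusted p = 0.0683). By the brightest probes, the next largest differences were 0.43 in DSC3, a desmosomal cadherin, and 0.19 in PLEC, a cytolinker, and on the other side -0.86 in EPPK1, the keratin binding protein epiplakin, and -0.55 in MACF1, which links microtubules to actin. Both lay mainly in collection 1, with -1.58 and -0.15 within collections 1 and 2 for EPPK1 and -0.86 and -0.25 for MACF1. DST, the plakin dystonin, was at -0.20 by its brightest probe and at 1.23 by a dimmer one (adjusted p = 0.199), with 44.5 and 27.4 in vec against 55.8 and 89.8 in shpkp3-2. DSP, the desmoplakin that binds keratin filaments, gave 9637 and 5330.4 in vec against 4221 and 5979 in shpkp3-2, a difference of -0.30 (adjusted p = 0.669).

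Of the enzymes and binding proteins that act on keratins, 24 of 24 were tested and 1 passed the test, where 0.282% of all genes were called higher. PTP4A1, a phosphatase of the PRL family, rose from 8059 and 8889.5 in vec to 30277 and 27653 in shpkp3-2, a log2 difference of 1.99 (SE 0.23, adjusted p = 0.0433), and the call was lost in 5 of 14 alternatives, among them with no filter (adjusted p = 0.218), with the weaker flag (0.186) and without shpkp3-2-1 (0.0594). Its other probes gave 2.28 (adjusted p = 0.0114) and 1.41 (adjusted p = 0.0734). PTP4A3, the PRL-3 phosphatase, for which keratin 8 is known as a substrate, gave 257 and 186 in vec against 134 and 163 in shpkp3-2, a difference of -0.35 (adjusted p = 0.522). SFN, a 14-3-3 protein that binds keratins, had a difference of 0.48. Phosphorylation of keratins is not measured by these arrays.

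Of the other intermediate filament genes, 15 of 17 with a probe were tested and none passed the test, with a median of -0.14. VIM, the vimentin of mesenchymal cells, met the 2-fold rule for lower genes, with 149 and 78.7 in vec against 38.6 and 40.6 in shpkp3-2 and a difference of -1.24 (adjusted p = 0.143). GFAP, the filament protein of astrocytes, met it for higher genes, with 53.0 and 161 in vec against 224 and 182 in shpkp3-2 and a difference of 1.34 (adjusted p = 0.45), which was 2.48 within collection 1 and 0.20 within collection 2. The largest other differences were 0.33 in NES, 0.29 in INA, -0.53 in DES (-0.92 and -0.14 within the collections) and -0.41 in PRPH.

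Of the transcription factors known to act on keratin genes or on epithelial differentiation, 15 of 18 were tested and 1 passed the test, where 0.282% of all genes were called higher, with a median of 0.09. GRHL3, a grainyhead factor of epidermal differentiation, rose from 299.7 and 169.7 in vec to 2027 and 2099 in shpkp3-2, a log2 difference of 3.40 (SE 0.21, adjusted p = 0.00531), a call lost with no filter (0.0563) and with the weaker flag (0.0657). EHF, an ETS factor of epithelia, met the 2-fold rule with 281 and 266 in vec against 567 and 580.2 in shpkp3-2, a difference of 1.28 (adjusted p = 0.0879). The largest other differences were 0.87 in GRHL1, which entered through shpkp3-2 alone (0.31 and 1.43 within the collections), 0.77 in OVOL1, -0.72 in OVOL2 and -0.61 in KLF5.

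Genes of the cornified envelope, which accompany keratins in the outer epidermis, were tested for 12 of 16 with a probe, and by the brightest probes none passed the test, with a median of 0.26 and 10 of 12 above 0, where 58.3% of all genes were. Of these 10 genes, 2 entered the test through shpkp3-2 alone. The probes of SPRR1A disagreed. The brighter gave 843 and 875 in vec against 736 and 842 in shpkp3-2, a difference of 0.086 (adjusted p = 0.899), and the dimmer, well above background on 3 arrays, gave 12.6 and 10.2 in vec against 67.3 and 100.5 in shpkp3-2, a difference of 3.07 that passed the test (adjusted p = 0.0118). This probe entered the test through shpkp3-2 alone, against vec signals near background. SPRR3 met the 2-fold rule with 17.1 and 25.5 in vec against 51.2 and 40.1 in shpkp3-2, a difference of 1.33 (adjusted p = 0.236), which was 1.98 within collection 1 and 0.68 within collection 2. By the brightest probes, the largest other differences were 0.94 in SBSN (1.54 and 0.35 within the collections), 0.93 in SPRR2D (0.37 and 1.499), -0.50 in TGM1 (-0.14 and -0.87) and -0.21 in CNFN.

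The labeled cell type was checked with markers. Of 12 markers of colorectal epithelium, 9 were tested and none passed the test, all 9 with a difference above 0, where 58.3% of all genes were. EPCAM and CDH1 passed the background flag on every array, while CDH17 and CDX1 were so on no array and VIL1 on 1. CLDN3 (1.24, adjusted p = 0.104) and TSPAN8 (1.88, adjusted p = 0.0508) met the 2-fold rule, TSPAN8 being well above background on 1 vec array and so tested through shpkp3-2 alone, and CLDN7 (0.98) and CLDN4 (0.96) had the next largest log2 differences. Of the fibroblast markers 2 of 8 were tested, COL1A1 (0.02) and THY1 (-0.46), with DCN, LUM, COL1A2 and COL3A1 on no array well above background. Of the endothelial markers 2 of 5 were tested, VWF (0.24) and PECAM1 (0.09), with CDH5 and KDR on no array.

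Of the leukocyte markers 5 of 8 were tested, and CD68, a lysosomal protein of macrophages, passed the test with 149 and 109 in vec against 296 and 296 in shpkp3-2, a log2 difference of 1.43 (adjusted p = 0.0459), which was lost without vec2 (0.0668), shpkp3-2-1 (0.138) or shpkp3-2-2 (0.125) and in 8 of 14 alternatives in all. Other log2 differences were 0.22 in CD14, -0.07 in CD3E and -0.03 in ITGAM, while PTPRC, the defining marker of leukocytes, CD3D and LYZ were well above background on no array. The unscaled signals of this list, summed over its markers, were 429 and 295 in vec against 517 and 561 in shpkp3-2. Of these sums CD68 alone made 149 and 109 in vec and 296 and 296 in shpkp3-2. As the sums add unscaled signals of different probes and restate CD68, nothing is read from them for the list. These values stand beside the calls of KRT7 and KRT23, and their part in it was not tested.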

How the data were processed

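Gene expression was measured in 2 HCT116 clones with 2 arrays each. The authors deposited the Feature Extraction output of single color Agilent arrays with its intensity values, of which the processed signal is background subtracted, and with quality flags. The file headers name version 10.7.3.1 and the submitters' processing notes 9.1, and the grid was built on hg18. Here spots flagged as non-uniform (26 to 39 on an array) and control spots were left out. The log2 of the deposited intensity was taken relative to the 75th percentile of each array, and spots of a probe were averaged, giving 50117 probes with a value on all arrays. A probe was tested when its flag was well above background on the 2 arrays of either clone, which 30520 probes met. Linear models were fitted and moderated (lmFit, eBayes) in limma 3.58.1 under R 4.3.3, with Benjamini-Hochberg adjustment over all probes tested and a threshold of 0.05. The numbers of arrays limit the precision, and no depth applies. The scripts were tested on simulated data, and tables and plots were made with Python 3.11.15, numpy 2.4.6, pandas 2.3.3, scipy 1.17.1 and matplotlib 3.10.9.

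Of the keratin probes, 74 were matched to RefSeq (GRCh38.p14) by accession and 6 by symbol. Every keratin detected is named, and of the other lists the genes that passed the test or the 2-fold rule and the 2 largest differences in each direction, except for some genes that are not reported here. The members and lists were chosen with earlier results of these data known. RNA of the same replicate number was collected together, so that the numbers pair the samples, and the deviations of same-numbered arrays from their clone means correlated at -0.199 over 30520 probes. Alternatives were normexp background correction (offset 50), quantile normalization, median centring, other filters, the replicate block, a trended and robust prior, the mean of all probes of a gene, a 1.5-fold rule and leaving out each array.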

Additional observations from a re-analysis of the deposited data

How the results depend on the processing

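With 2 arrays of 1 clone in each group, the calls depend on the filter and on the estimate of the spread. limma called 76 probes higher and 45 lower. These counts were 42 higher after quantile normalization, 10 and 8 with no filter, 25 and 21 over probes detected on all arrays, 1 and 1 with the weaker flag, and 503 and 338 with the replicate block. Leaving out 1 array gave 108 to 243 higher and 55 to 154 lower. Of the keratins, 2 were called higher and 0 lower. The higher count was 1 after quantile normalization, 1 over probes detected on all arrays (which leaves KRT7 out), 0 with no filter and 0 with the weaker flag, and 1 to 2 without 1 array. The lower count was 1 with the replicate block and 0 to 1 without 1 array, KRT36 in both cases. Without shpkp3-2-2 the keratins called higher were KRT7 and KRT27, the latter bright only on the 1 array left in that clone, which is assumed to vary like vec. The replicate block called KRT7, KRT23, KRT32 and KRT36. With the arrays paired across the collections, an alternative chosen after seeing the data, 64 probes were higher and 40 lower, and 1 keratin, KRT7, was higher and 0 lower.

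The 2-fold rule gave 341 probes higher and 190 lower. The counts were 104 and 55 with normexp, 661 and 519 with no filter, 202 and 120 over probes detected on all arrays, 661 and 454 with the weaker flag, 1292 and 808 at 1.5-fold, and 431 to 1179 and 320 to 672 without 1 array. It gave 3 keratins higher, 3 to 4 without 1 array. It gave 1 lower, 0 with normexp, 0 over probes detected on all arrays, 2 with no filter, 2 with the weaker flag and 1 to 2 without 1 array. The lists held 3 called genes, 7 with normexp, 1 after quantile normalization, 0 with no filter, 1 over probes detected on all arrays, 0 with the weaker flag, 11 with the replicate block, 6 with the trended and robust prior and 2 to 5 without 1 array. The PKP3 difference stayed at -2.54 where its call was lost and was -2.80 to -2.28 without 1 array.

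Of 374 alternative values of single keratins, 20 turned in direction, in 12 genes, and 15 genes kept 1 direction. None of the 12 passed the test in the main setting, and the cause was not tested. With normexp, KRT4 was 0.019 and KRT17 0.039. After quantile normalization, KRT18 was -0.15 and KRT38 -0.12. After median centring, KRT18 was -0.025, KRT14 -0.022 and KRT38 -0.067. Leaving out each array in turn gave ranges of -0.13 to 0.22 for KRT18, -0.21 to 0.40 for KRT20, -0.52 to 0.16 for KRT3, -0.28 to 0.61 for KRT13, -0.27 to 0.37 for KRT14, -0.41 to 0.15 for KRT81, -0.12 to 0.46 for KRT84, -0.042 to 0.42 for KRT85, -0.097 to 0.46 for KRT37 and -0.58 to 0.59 for KRT38. PTP4A1 and CD68 also lost their calls after quantile normalization (adjusted p = 0.0516 and 0.0600) and over probes detected on all arrays (0.0513 and 0.0550).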
